A study of Mus musculus with 29 samples.

Results

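Hox genes encode homeodomain transcription factors that give cells along the body axis their position, and in the mouse they lie in 4 clusters, HoxA on chromosome 6, HoxB on chromosome 11, HoxC on chromosome 15 and HoxD on chromosome 2. Within a cluster the genes stand in the order of their paralogue groups, from group 1 at the end that is used first and most anteriorly to group 13 at the end used last and most posteriorly. In the hindbrain and neural tube the anterior groups set segment identity, and the posterior groups pattern the trunk, limbs and genital region. The 38 Hox genes considered here, 10 in HoxA, 10 in HoxB, 9 in HoxC and 9 in HoxD, were taken from a fixed list of gene symbols, and all 38 were found among the 22208 protein-coding genes annotated on chromosomes 1 to 19 and X. Binding was read from the gene bodies and the 20 kb to each side of them, which joined into 5 regions of 611.0 kb in all, or 0.0239% of the sequenced genome. Hoxb13 stands apart from the rest of HoxB and had a region of its own of 43.13 kb, and the other 4 regions were 136.8 to 155.7 kb long.

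Binding had been mapped by chromatin immunoprecipitation and sequencing (ChIP-seq), and the data are lists of peaks, in embryoid bodies (EBs) grown from mouse embryonic stem cells of the A2loxCre parental line. The lines carried a doxycycline (Dox)-inducible cassette that ended in a Venus reporter and expressed Atoh1 (iAtoh1), Pou4f3 (iPou4f3), Gfi1 with Atoh1 (iG+A), Gfi1 with Pou4f3 (iG+P), Pou4f3 with Atoh1 (iP+A) or Gfi1, Pou4f3 and Atoh1 together (iGPA). The lines were grown from individually picked colonies. EBs of every line, inputs included, had 2 µg/ml Dox for 48 hours and were collected at day 6, so that no list came from uninduced cells. Atoh1, a basic helix-loop-helix factor, was precipitated by a FLAG tag in 4 lines, Pou4f3, a POU homeodomain factor, by a MYC tag in 4 lines, and Gfi1, a zinc finger repressor, by an antibody to the protein in iGPA only. The 17 ChIP and 12 input libraries gave 9 lists, each called once on its merged libraries (2 per ChIP group, 1 for Gfi1), so that every value below is a single value with no replicate error and no test was possible between lists. The lists held 15568 to 26231 kept summits for Atoh1, 17082 to 32632 for Pou4f3 and 3012 for Gfi1, and read depth was not used here.

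The sequences at the sites with the clearest Pou4f3 signal are shown first. Summit windows of 300 bp from all 9 lists were joined into sites, and 9 Hox sites were held by all 4 Pou4f3 lists. In 7 of these the 250 bp around the highest summit held the 9-letter Pou4f pattern ATAATTAAT on either strand with at most 1 mismatch. Over the genome, 60.3% of the sites in all 4 Pou4f3 lists held it, so the pattern is not particular to the Hox clusters. The 2 Hox sites without it are not printed, so its presence in every sequence below follows from that choice. Each of the 7 is printed 5′ to 3′ on the plus strand of NCBIM37 (mm9) with matches in capitals. A 100-base stretch is centred on the summit, and a stretch in or next to an untranslated part of an exon is shortened to 30 bases around the match.
Between Hoxb5 and Hoxb4, chr11:96171990-96172089: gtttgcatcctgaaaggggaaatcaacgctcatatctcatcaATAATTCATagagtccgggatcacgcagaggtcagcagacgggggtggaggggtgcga
Hoxb3, chr11:96189502-96189531: gattcattaaATAATTAATgcctaggttgc
Hoxc4 intron, chr15:102865816-102865915: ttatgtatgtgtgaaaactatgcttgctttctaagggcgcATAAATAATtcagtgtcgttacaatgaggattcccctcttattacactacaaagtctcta
Between Hoxd3 and Hoxd1, chr2:74587784-74587883: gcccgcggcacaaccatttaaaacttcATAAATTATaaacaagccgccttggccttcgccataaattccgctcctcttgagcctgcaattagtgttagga
Hoxd11, chr2:74517523-74517552: aagagcATAAATAATTAAAgtttggcaggg
Hoxa3, site 5070 bp upstream of a Hoxa3 start, chr6:52127709-52127738: cgagattgttAAAATTAATAATTTATaata
Hoxa3 intron, site 931 bp upstream of another Hoxa3 start, chr6:52135755-52135854: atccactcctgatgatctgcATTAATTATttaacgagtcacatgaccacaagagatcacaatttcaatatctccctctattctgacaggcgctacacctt

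Longer runs were also shared between sites of different clusters. Over the 36 pairs of the 9 sites, the longest identical run in 300 bp windows had a median of 9 bases. The Hoxb3 and Hoxa3 intron sites, which belong to the same paralogue group, shared 15 bases, and 22 of 30 aligned bases were identical, the 15 included. The Pou4f pattern lies within this run. The run is in capitals here, with the HoxA sequence read on the minus strand, which is the strand of the HoxA genes.
Hoxb3, chr11:96189501-96189530, plus strand: tgattcaTTAAATAATTAATGCctaggttg
Hoxa3, chr6:52135765-52135794, minus strand: tgactcgTTAAATAATTAATGCagatcatc
The next longest run was 12 bases, in 2 pairs, and 4 pairs of different clusters had 11. The Hoxc4 and Hoxd11 sites had a run of 12 with the AT-rich core in it, with 20 of 30 aligned bases identical, the 12 included, and they are shown for that core. The other run of 12, between the Hoxc4 site and the site upstream of Hoxa3, did not hold it.
Hoxc4, chr15:102865845-102865874, plus strand: tctaagggcGCATAAATAATTcagtgtcgt
Hoxd11, chr2:74517518-74517547, plus strand: cctaaaagaGCATAAATAATTaaagtttgg
These are descriptions of the printed letters, no background of shared runs from other Pou4f3 sites is given, and no statement about common ancestry was tested.

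The Pou4f3 lists held many more summits in the Hox regions than the Atoh1 lists. iPou4f3 and iG+P each had 38 kept summits there, iP+A 23 and iGPA 14, against 6 Atoh1 summits for iAtoh1, 6 for iG+A, 10 for iP+A and 6 for iGPA, and 4 Gfi1 summits in iGPA. The ranges of the 2 factors did not overlap. As a density, the Pou4f3 lists had 62.2, 62.2, 37.6 and 22.9 summits per Mb in the Hox regions (iPou4f3, iG+P, iP+A and iGPA), against 8.77, 12.8, 6.67 and 7.33 over the genome. The ratio of Hox to genome density was 7.09 for iPou4f3 (95% exact Poisson interval 5.02 to 9.73), 4.88 for iG+P (3.45 to 6.69), 5.64 for iP+A (3.58 to 8.46) and 3.12 for iGPA (1.71 to 5.24). These intervals cover counting error only and treat neighbouring summits as independent. For Atoh1 the ratio was 1.61 for iAtoh1 (0.592 to 3.51), 1.22 for iG+A (0.449 to 2.67), 2.21 for iP+A (1.06 to 4.07) and 0.957 for iGPA (0.351 to 2.08), so that only the iP+A interval lay above 1. The Gfi1 ratio of 5.58 (1.52 to 14.3) came from 4 summits.

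**Figure D1:**
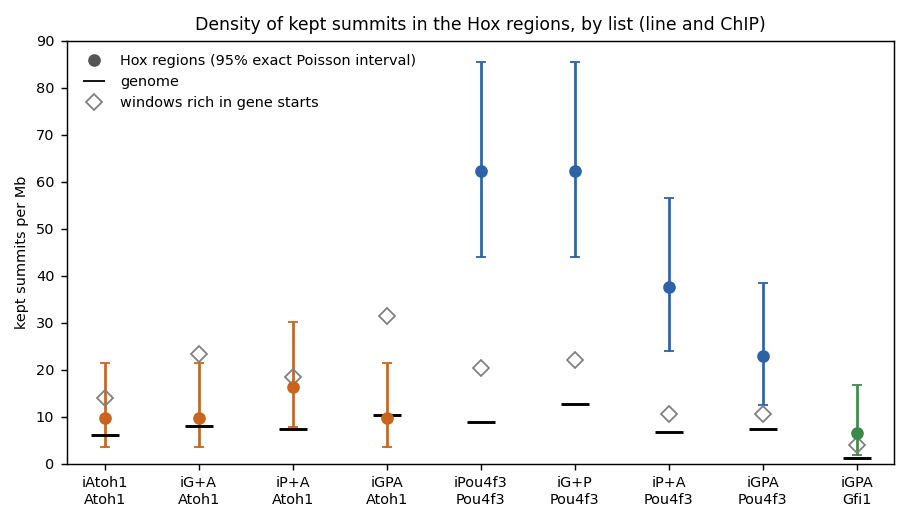
Kept summits per Mb in the Hox regions for the 9 lists (points, with 95% exact Poisson intervals that cover counting error only), over the genome (bars) and in windows of the same lengths with at least 1 protein-coding start per 20 kb (diamonds). The 4 Pou4f3 points, 22.9 to 62.2 per Mb, lie above their diamonds, and the 4 Atoh1 points, 9.82 to 16.4 per Mb, lie below theirs. The Atoh1 diamonds of iAtoh1 and iP+A lie inside the intervals of their points.

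Hox clusters are dense in genes, and many summits lie near starts, so each region was also set against windows of its own length laid end to end along the chromosomes that held at least 1 protein-coding start per 20 kb. Against these windows the Pou4f3 density ratio fell to 3.05 for iPou4f3, 2.81 for iG+P, 3.59 for iP+A and 2.18 for iGPA, and that of Gfi1 to 1.66. The Atoh1 ratio was then 0.708, 0.421, 0.890 and 0.313 for iAtoh1, iG+A, iP+A and iGPA, below 1 in all 4 lists. By the Poisson intervals of the Hox counts, the start-rich density lay inside the interval for iAtoh1, iP+A and Gfi1. It lay above the interval for Atoh1 in iG+A and iGPA, and below it in all 4 Pou4f3 lists. In HoxB without Hoxb13, the 12 summits of iPou4f3 were reached by 0.262% of all windows and by 4 of 421 start-rich windows. HoxD, with 11 summits in that list, was matched by 0.283% of all windows and 5 of 429 start-rich ones, and HoxA, with 10 summits, by 0.341% and 7 of 425. HoxC was poorer, and its 5 summits were reached by 5.38% of all windows and by 26.5% of the start-rich ones. For iG+P and iP+A, the counts of HoxA, HoxB without Hoxb13 and HoxD were reached by 0.940% to 1.20% of all windows. Of the start-rich windows, 1.18% to 2.33% did so. In iGPA, where Pou4f3 had 5 summits in HoxA, 5 in HoxB with Hoxb13, 1 in HoxC and 3 in HoxD, the HoxC count was reached by 57.2% of all windows. The iGPA counts were less extreme in the other clusters too. Of all and of start-rich windows, 2.22% and 5.88% reached that of HoxA and 11.7% and 20.5% that of HoxD. For HoxB without Hoxb13 the shares were 5.12% and 11.4%.

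**Figure D2:**
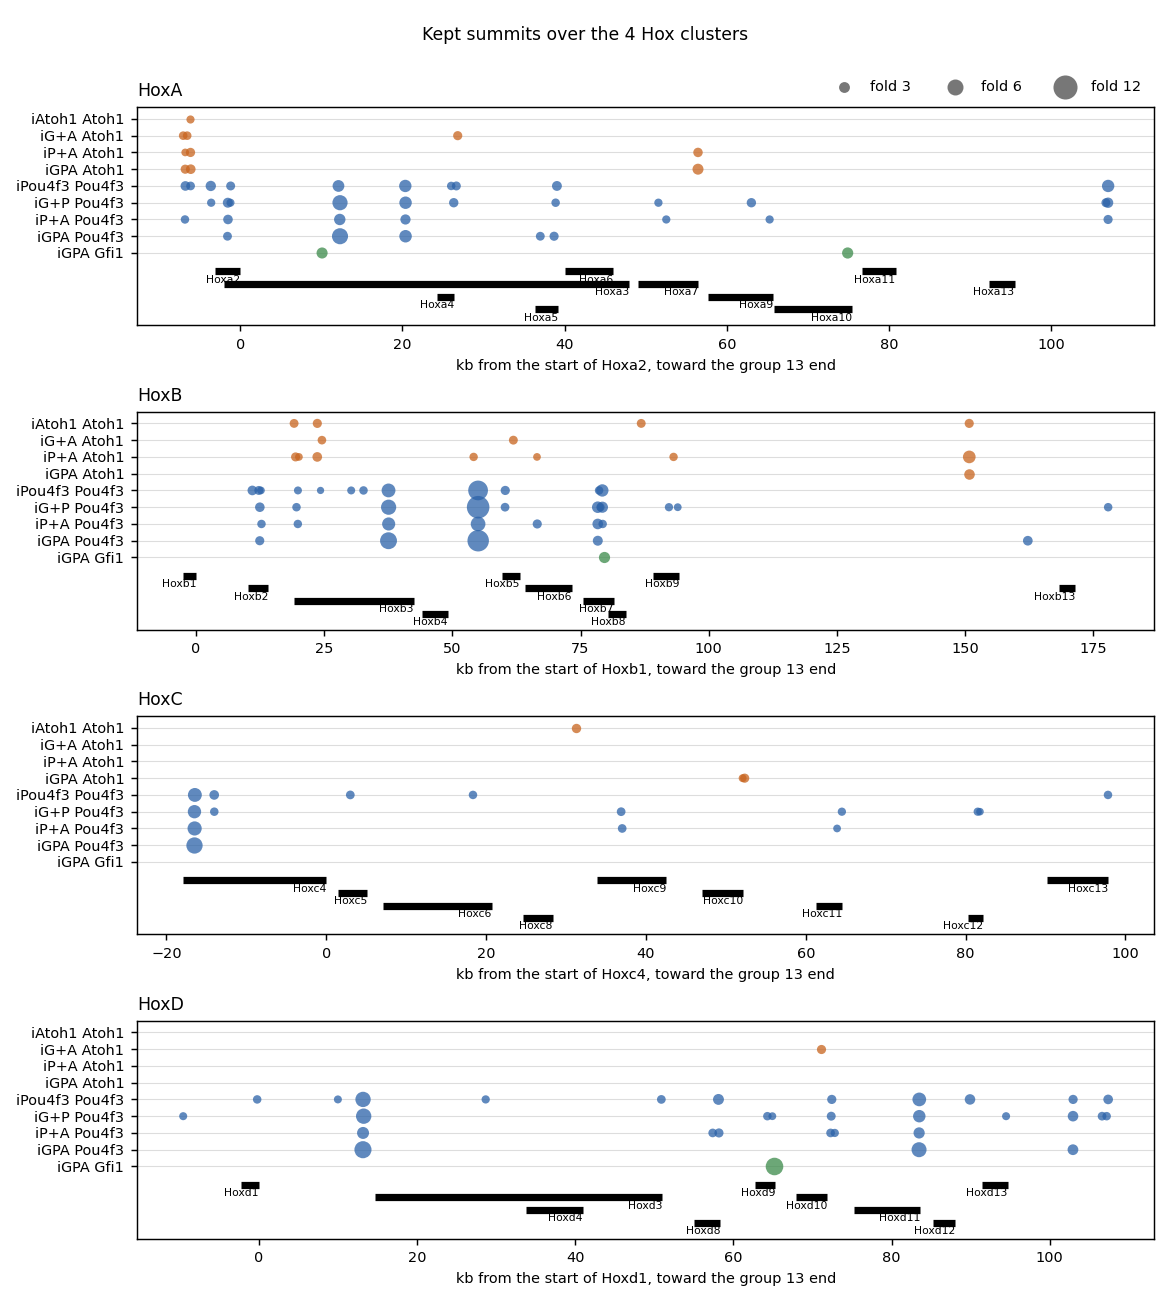
Kept summits over the 4 clusters, by list, in kb from the start of the lowest-numbered member of each cluster, with bars for the annotated gene bodies and point area rising with fold enrichment. Large Pou4f3 points recur at the same places in 4 lists, in HoxB near 55 kb between Hoxb5 and Hoxb4 and near 38 kb in Hoxb3, in HoxC inside Hoxc4, in HoxD beside Hoxd3 and at Hoxd11, and in HoxA inside Hoxa3.

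Counted by gene, 33 of the 38 members had a Pou4f3 summit in the body or within 20 kb by the iPou4f3 list, 37 by iG+P, 36 by iP+A and 26 by iGPA. The same rule over all protein-coding genes gave 57.0%, 59.6%, 41.8% and 44.4%, against 86.8%, 97.4%, 94.7% and 68.4% of the members. Neighbouring members share summits, and a summit lay within 20 kb of a median of 3.0 members and at most 6, so members are not independent counts. For Atoh1, 14 members were reached by the iAtoh1 list, 17 by iG+A, 17 by iP+A and 11 by iGPA, or 36.8%, 44.7%, 44.7% and 28.9%, against 37.7%, 51.0%, 47.1% and 59.2% of all genes. For Gfi1 in iGPA it was 18 members, or 47.4%, against 14.8% of all genes, and these 18 rested on the 4 summits. Every member had a Pou4f3 summit within 20 kb in at least 1 list, and 25 had one in all 4. No Atoh1 list had a summit within 20 kb of 10 members, Hoxa11, Hoxa13, Hoxc4, Hoxc5, Hoxc12, Hoxc13, Hoxd1, Hoxd3, Hoxd4 and Hoxd13.

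Within 1 kb of an annotated start of the gene, fewer members had a summit. The iPou4f3 list had a Pou4f3 summit there at 12 members, iG+P at 12, iP+A at 9 and iGPA at 4, against 26.0%, 20.6%, 14.2% and 9.92% of all genes. These counts were 31.6%, 31.6%, 23.7% and 10.5% of the members, so every Pou4f3 share stood closer to that of all genes than within 20 kb. Atoh1 summits were within 1 kb of a start at 0 members by the iAtoh1 list, 3 by iG+A, 2 by iP+A and 2 by iGPA, against 12.2%, 20.8%, 18.4% and 26.1% of all genes. The highest of these member shares was 7.89%, in iG+A. Gfi1 had 2 members with such a summit, Hoxd9 and Hoxa10, or 5.26%, against 4.78% of all genes.

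**Figure D3:**
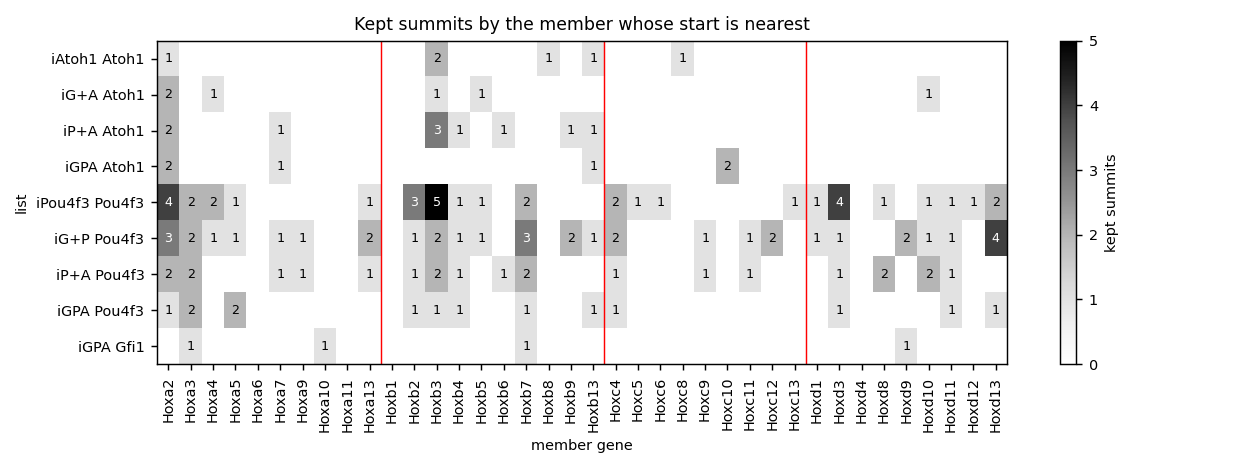
Kept summits in the Hox regions by list (rows), each given to the member whose annotated start is nearest (columns, with red lines between clusters); the shade and the printed number are the count, and empty cells are 0. Hoxa2, Hoxa3, Hoxb2, Hoxb3, Hoxb4, Hoxb7, Hoxc4, Hoxd3 and Hoxd11 have a Pou4f3 summit in all 4 lists.

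When each summit was given to the member with the nearest start, 9 members had a Pou4f3 summit in all 4 lists. Hoxb3 and Hoxa3, which pattern the caudal hindbrain and the pharyngeal arches, had 10 and 8 Pou4f3 summits over the 4 lists, and Hoxa2, a regulator of the second pharyngeal arch, had 10. Some of the Hoxa2 summits lay closer to a neighbouring gene that is not a member, and the annotated span of Hoxa3 runs over Hoxa4 to Hoxa6 because of long transcripts. Hoxb7 had 8, Hoxd3 had 7, Hoxb2 and Hoxc4 had 6 each, and Hoxb4 and Hoxd11 had 4 each, 1 per list. Hoxd13, which with Hoxa13 patterns the digits and the genital tubercle, had 7 Pou4f3 summits, 4 of them in iG+P, 2 in iPou4f3, 1 in iGPA and 0 in iP+A, but 6 of the 7 lay at sites closer to the start of Evx2, which is not a member. Hoxa13 had 2 in iG+P, 1 in iPou4f3, 1 in iP+A and 0 in iGPA. No summit of any list was nearest to 4 members, Hoxa6, Hoxa11, Hoxb1 and Hoxd4, and Hoxa10, Hoxb8, Hoxc8 and Hoxc10 had none of Pou4f3.

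The remaining members had few summits. In HoxA, Hoxa5 had 4 Pou4f3 summits over the 4 lists, Hoxa4 had 3, and Hoxa7 and Hoxa9 had 2 each. In HoxB, Hoxb5, Hoxb9 and Hoxb13 had 2 each and Hoxb6 had 1. In HoxC, Hoxc9, Hoxc11 and Hoxc12 had 2 each, and Hoxc5, Hoxc6 and Hoxc13, a gene needed for hair formation, had 1 each, all in iPou4f3. In HoxD, Hoxd10 had 4, Hoxd8 had 3, Hoxd1 and Hoxd9 had 2 each and Hoxd12 had 1.

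The iPou4f3 and iG+P lists had the same number of Pou4f3 summits, but their weaker summits were spread differently along the clusters. Of the 38 summits in iPou4f3, 19 were nearest to members of groups 1 to 3, 12 to groups 4 to 8 and 7 to groups 9 to 13. In iG+P the counts were 10, 10 and 18, and the last band holds 3 summits in iG+P and 2 in iPou4f3 at sites closer to Evx2. iP+A had 8, 8 and 7, and iGPA had 6, 5 and 3. The difference between iPou4f3 and iG+P lay largely in sites found in 1 Pou4f3 list. iPou4f3 had 15 such sites, with 9 summits near groups 1 to 3 and 2 near groups 9 to 13, and iG+P had 13, with 1 summit near groups 1 to 3 and 11 near groups 9 to 13. Their fold enrichment was low, 2.15 to 3.80 in iPou4f3 and 2.30 to 3.17 in iG+P. With a −log10 p of at least 10, 12 of these summits were left in iPou4f3 and 11 in iG+P. Both lists then had equal numbers near groups 4 to 8 and equal numbers near groups 9 to 13, so the contrast was not seen there. With 1 list per line, the contrast among all kept summits has no replicate check.

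The median fold of the Pou4f3 summits was higher at Hox sites held by more Pou4f3 lists. Of the 72 Hox sites, at least 1 Pou4f3 list held 60, of which 36 were in 1 list, 8 in 2, 7 in 3 and 9 in 4. The share in all 4 was 15.0% (95% exact Clopper-Pearson interval 7.10% to 26.6%), against 14.8% of the 47396 Pou4f3 sites of the genome. Median fold enrichment at the Pou4f3 summits of these sites was 2.73, 2.91, 3.07 and 5.14 for sites in 1, 2, 3 and 4 lists, and in the genome it was 2.85, 3.09, 3.39 and 4.60. The summits of single-list Hox sites stood at a median percentile of 9.21 by −log10 p in their own lists, and those of the sites in 4 lists at 86.2. Sites in 1 list lay within 1 kb of an annotated start of any gene in 25 of 36 cases, their median GC content was 62.2%, and they had a median of 17 CpG in 250 bp. Of the 9 sites in 4 lists, 5 lay within 1 kb of a start, with a median GC content of 47.6% and 11 CpG. In the genome, single-list Pou4f3 sites had a median GC content of 43.6% and 2.00 CpG, and 23.3% lay within 1 kb of a start. For genome sites in 4 lists the values were 42.4%, 2.00 CpG and 13.4%. The Hox regions as a whole had a GC content of 48.3%, against 41.8% over the genome, and they are dense in starts.

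The Pou4f pattern went with the number of lists. It was present in 7 of 36 Hox sites in 1 Pou4f3 list, 2 of 8 in 2, 5 of 7 in 3 and 7 of 9 in 4. The genome shares were 28.8%, 38.9%, 49.7% and 60.3%. As background, 8.23% of the 2442 windows of 250 bp laid end to end over the Hox regions held it. Over all Hox summits of a list, the pattern was present in 39.5% for iPou4f3, 44.7% for iG+P, 47.8% for iP+A and 57.1% for iGPA, against 41.9%, 41.9%, 40.0% and 54.5% of all kept summits of those lists. Each whole-list value lay within the 95% exact interval of its Hox value. The 7-letter pattern AATAATT, chosen after these sequences were seen and partly overlapping the Pou4f pattern, was in 6 of the 9 sites in 4 lists and in 4 of the 36 in 1 list, against 5.49% of the end-to-end windows.

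**Figure D4:**
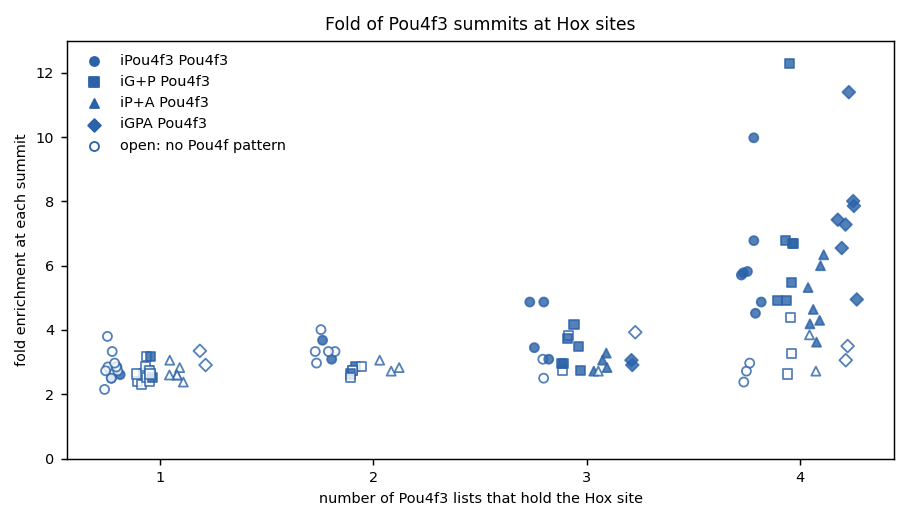
Fold enrichment of each Pou4f3 summit at a Hox site (y) by the number of Pou4f3 lists that hold the site (x), with a symbol for each line and filled symbols where the 250 bp around the highest summit of the site hold the Pou4f pattern. Summits with a fold of 5 or more are found at sites in 4 lists, and all of those are filled.

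The strongest Hox site in each of the 4 Pou4f3 lists was the one between Hoxb5 and Hoxb4, 5959 bp upstream of the nearest Hoxb4 start. Hoxb4 acts in the hindbrain and in blood stem cells. Its fold enrichment was 9.98 for iPou4f3, 12.3 for iG+P, 6.34 for iP+A and 11.4 for iGPA, with −log10 p of 56.6, 83.8, 28.1 and 57.6. It stood at the percentiles 96.8, 99.2, 95.7 and 94.7 of its lists by −log10 p, so it was among the stronger summits of each list but not at the top. No Atoh1 or Gfi1 summit fell in this site, although an Atoh1 summit of iP+A, with a fold of 2.69, lay less than 1 kb away. The Hoxb3 site, in an untranslated exon part 138 bp after a start, had fold values of 5.78, 6.68, 5.32 and 7.86 for iPou4f3, iG+P, iP+A and iGPA.

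In the other clusters the strong sites had a similar range. The Hoxc4 intron site had 5.82, 5.47, 6.00 and 7.43 for iPou4f3, iG+P, iP+A and iGPA. It was the sole HoxC summit of the iGPA list. The site between Hoxd3 and Hoxd1, in an exon of the non-coding transcript 6720416L17Rik and 4102 bp from the nearest Hoxd3 start, had 6.78, 6.79, 4.64 and 8.01. At Hoxd11, 107 bp from a start and in an exon of a transcript with no coding part annotated, the values were 5.71, 4.93, 4.19 and 6.55. Hoxd11 patterns the forearm with Hoxa11. In HoxA the site upstream of Hoxa3, which lies in an untranslated part of 5730596B20Rik, had 4.52, 6.68, 4.30 and 7.28, and the Hoxa3 intron site had 4.87, 4.93, 3.62 and 4.95. In these 7 sites the fold was lowest in iP+A in 6 cases, the exception being Hoxc4, and highest in iGPA in 6 cases, the exception being the site between Hoxb5 and Hoxb4. Fold enrichment was computed against a separate background in each list, so its order between lists is not a test of binding strength. Their 28 summits had folds of 3.62 to 12.3, and the 10 summits of the other 2 sites in 4 lists, at Hoxb7 and in a coding exon of Hoxb2, had 2.38 to 4.38 and no Pou4f pattern.

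Further sites named by the rule were in 2 or 3 Pou4f3 lists. The site 11537 bp upstream of Hoxa13 had folds of 4.87 in iPou4f3 and 3.06 in iP+A, and 2.96 and 3.72 at its 2 summits in iG+P, with a pattern match (ATCAATTAT) near the summit. A site 8274 bp upstream of Hoxd13, and nearer to the start of Evx2, an even-skipped gene next to HoxD, had 3.09, 3.83 and 3.93 in iPou4f3, iG+P and iGPA. In HoxC, another Hoxc4 intron site had 3.33 and 2.74 in iPou4f3 and iG+P, and a site in a coding exon of Hoxc9 had 2.85 and 2.83 in iG+P and iP+A. The HoxB site found in the most lists, 5 of the 9, lay in a coding exon of Hoxb3 and was 1246 bp wide because 6 weak summits joined, with folds of 2.37 to 3.01 for Atoh1 in iAtoh1 and iP+A and for Pou4f3 in iPou4f3, iG+P and iP+A. The 100 bases around its highest summit held no match to the Pou4f pattern and no E-box core.
Hoxb3 coding exon, chr11:96207600-96207699: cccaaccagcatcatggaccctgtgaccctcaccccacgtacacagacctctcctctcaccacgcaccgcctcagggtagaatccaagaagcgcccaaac

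Lists of the same factor from different lines shared some of their Hox sites. For Pou4f3, iPou4f3 had 37 Hox sites and iG+P 35, and they shared 20, or 54.1% and 57.1% of each, against 63.1% and 44.1% over the genome. iP+A shared 15 of its 23 Hox sites with iPou4f3, or 65.2% of the iP+A and 40.5% of the iPou4f3 Hox sites, against 59.1% and 44.6% over the genome. iGPA had 14 Hox sites, of which 11 were in iPou4f3, 12 in iG+P and 10 in iP+A, or 78.6%, 85.7% and 71.4%, against 59.2%, 71.9% and 49.1% over the genome. Seen from the larger lists these were 29.7% of the iPou4f3, 34.3% of the iG+P and 43.5% of the iP+A Hox sites, below the genome shares of 49.8%, 42.2% and 54.7%. For Atoh1, with 5 to 9 Hox sites per list, iAtoh1 and iG+A shared 0 Hox sites, against 53.7% and 40.7% of each list over the genome. That 0 depends on the 300 bp windows. An iAtoh1 and an iG+A summit fell in neighbouring HoxA sites that these windows did not join and wider ones would. The iP+A and iGPA lists shared 4, or 44.4% and 80.0%, against 59.2% and 42.7%. iG+A shared 1 with iP+A, or 20.0% and 11.1% of each, against 40.2% and 43.2% over the genome. With iGPA it shared 1, or 20.0% of each, against 54.4% and 42.3%. iAtoh1 shared 4 with iP+A, or 66.7% and 44.4%, against 51.5% and 41.9%. With iGPA, iAtoh1 shared 2, or 33.3% and 40.0%, against 54.4% and 32.0%. The length of a list and the depth behind it cannot be told apart from the cassette here.

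Atoh1 had 16 Hox sites over its 4 lists, and none was in all 4, against 10.8% of the Atoh1 sites of the genome. A count of 0 of 16 allows a share of up to 20.6% at the upper 95% exact limit. In all, 3 sites were in 3 Atoh1 lists. The site with the highest fold lay 20607 bp downstream of the Hoxb13 start and was found in iAtoh1 with a fold of 3.05, in iP+A with 5.06 and in iGPA with 3.81. Hoxb13 is the posterior HoxB member, known for its role in the prostate. The other 2 lay closest to the neighbouring gene that is not a member, and they supplied the Atoh1 summits by which Hoxa2 and Hoxa3 had a summit within 20 kb in all 4 Atoh1 lists. They lay side by side and together held all 4 Atoh1 lists. The count of 0 sites in all 4 therefore depends on the 300 bp windows, and no other width was tried for it. At the start of Hoxa7, 1 bp upstream, Atoh1 had a fold of 3.23 in iP+A and 4.06 in iGPA. The E-box core CAGATG and its forms with CAGCTG or with CATATG, words that basic helix-loop-helix factors bind, are in capitals in the sequences of both.
Downstream of Hoxb13, chr11:96076138-96076337: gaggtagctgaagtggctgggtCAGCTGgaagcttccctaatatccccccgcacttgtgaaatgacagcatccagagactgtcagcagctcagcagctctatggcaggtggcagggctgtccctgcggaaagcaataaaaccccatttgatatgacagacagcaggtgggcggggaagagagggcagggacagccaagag
Hoxa7 start, chr6:52171830-52171859: gcactgcagccgCAGCTGctctggcccgcg

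The highest folds of Hox summits in the other 2 Atoh1 lists were 3.18, for iAtoh1 in an intron of Gm20398 near Hoxc8, and 3.07, for iG+A by the start of Hoxa4 and, tied, at Hoxd10. An E-box core was present at 4 of 6 Hox summits for iAtoh1, 3 of 6 for iG+A, 8 of 10 for iP+A and 5 of 6 for iGPA, against 62.9%, 65.3%, 66.6% and 75.2% of all kept Atoh1 summits and 24.4% of the end-to-end windows of the Hox regions. The median fold of the Atoh1 Hox summits was 2.99, 2.87, 2.85 and 3.20, against 3.18, 3.20, 3.12 and 3.45 for the whole lists. That of the Pou4f3 Hox summits was 3.09, 2.85, 3.06 and 4.44 for iPou4f3, iG+P, iP+A and iGPA. The whole Pou4f3 lists had 3.33, 2.96, 3.17 and 4.08, so iGPA alone had the higher value at Hox summits. HoxD had 1 Atoh1 summit over the 4 lists, in iG+A at Hoxd10. In all, 6 Hox sites held both an Atoh1 and a Pou4f3 summit from any line, or 37.5% of the Atoh1 sites (95% exact interval 15.2% to 64.6%), against 32.2% over the genome. In iP+A, 3 of 9 Atoh1 sites held Pou4f3 of the same line, and in iGPA 0 of 5 did (exact upper limit 52.2%), against 24.2% and 16.0% over the genome.

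Gfi1 had 4 Hox sites in iGPA, and the strongest was at Hoxd9, a gene that patterns the lumbar region. Its summit, 134 bp after the start in an untranslated part of the first exon, had a fold of 8.36 and a −log10 p of 25.3, at the percentile 90.6 of the list. The folds of the others were 4.18 at Hoxb7, 4.18 at Hoxa10 and 4.12 in a Hoxa3 intron, near the median of the list, 4.40. The core AATCAC of the Gfi1 binding word is in capitals in these sequences, and no match was found in the 250 bp around the highest summit of the Hoxb7 site, which belongs to iPou4f3.
Hoxd9, chr2:74535918-74535947: tttttttttttaAATCACagcagcccccag
Hoxa10, chr6:52190281-52190310: actcatttcagaAATCACtgccaaggggca
Hoxa3 intron, chr6:52125412-52125611: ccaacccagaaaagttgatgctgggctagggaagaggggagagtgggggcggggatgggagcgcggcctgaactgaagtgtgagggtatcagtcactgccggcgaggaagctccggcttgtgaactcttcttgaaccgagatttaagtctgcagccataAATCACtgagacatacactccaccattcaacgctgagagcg
The core was present at 3 of the 4 Gfi1 summits (95% exact interval 19.4% to 99.4%), against 24.1% of all kept Gfi1 summits and 8.56% of the end-to-end windows. The Gfi1 summit without it was the one at Hoxb7. None of the 4 Gfi1 sites held an Atoh1 or a Pou4f3 summit of iGPA, against 45.2% and 24.9% of the Gfi1 sites of the genome, and a count of 0 of 4 allows up to 60.2%. The 2 at Hoxd9 and Hoxb7 held a Pou4f3 summit of another line.

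Genes that act with or above the Hox genes were counted by the same rule of 20 kb, with the shares of all genes given above as background. Of 9 genes for the TALE partners, homeodomain proteins that bind DNA together with Hox proteins, 5, 9, 7 and 9 had an Atoh1 summit by the lists of iAtoh1, iG+A, iP+A and iGPA, and 8, 8, 7 and 8 a Pou4f3 summit by those of iPou4f3, iG+P, iP+A and iGPA. Meis3 had 1, 1, 2 and 2 Atoh1 summits and 0 of Pou4f3 in every list. Of 5 caudal and even-skipped genes, Evx2 had 4, 5, 1 and 2 Pou4f3 summits, some of which were also counted for Hoxd13, and no Atoh1 summit. Cdx2, an activator of posterior Hox genes, had summits in all 9 lists, 3 of them of Gfi1, Cdx1 had Atoh1 summits in all 4 Atoh1 lists and 0 elsewhere, and Cdx4 had 0 in all 9. Among 11 hindbrain regulators and retinoid genes, Egr2, which controls hindbrain segment identity upstream of Hox genes, had a summit in all 9 lists, with 3, 3, 3 and 2 for Atoh1, 3, 4, 3 and 2 for Pou4f3 and 1 for Gfi1. The number of these 11 genes with an Atoh1 summit was 5, 6, 7 and 11, and with a Pou4f3 summit 6, 8, 4 and 4. Of 7 Polycomb and Trithorax genes, whose products keep Hox genes silent or active, 3, 4, 4 and 5 had an Atoh1 summit and 6, 5, 5 and 6 a Pou4f3 summit, and Kmt2a had one in all 9 lists. Of 3 ParaHox genes listed apart from the caudal genes, Gsx2 had 2, 2, 1 and 2 Pou4f3 summits and 0 of Atoh1, and Pdx1 had 1, 1, 1 and 2 Atoh1 summits, 1 of Gfi1 and 0 of Pou4f3.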

How the data were processed

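The authors used Trimmomatic for adapters and Bowtie 2 for alignment to mm9. Duplicates, reads of low mapping quality and blacklisted regions were taken out, and MACS 2 was then run by the authors once per ChIP group, with its replicates and its inputs each merged. The deposited lists give fold enrichment, a ratio of the pileup at the summit to the local background, and −log10 p per peak. The deposited score column of the peaks and the signal column of the summit lists, whose definition is not given in the sources used here, were not used. The authors' summit lists hold a subset of the peaks, chosen by a filter not given there, and between 14.1% and 35.5% of called peaks were absent from them. Depth per library was not used, so the depth behind a value is unknown.

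Lists were matched to groups by name, and Gfi1 had 1 library. Members, gene lists and rules were chosen with earlier results of these data known. Genes came from GENCODE for NCBIM37, the same assembly as mm9, and starts are those of all transcripts. A summit within 20 kb of a body was counted. Windows of 300 bp that shared at least 1 bp were joined. Named were the 3 sites per cluster in most lists (ties by −log10 p), all Gfi1 sites and the site of highest fold per list. Of 8 sites closest to the start of a gene that is not a member, 3 are counted but not reported here by position. Some sequences beyond this rule were printed after they were seen. Intervals are 95% exact (scipy 1.17.1) and cover counting error only. Random windows were replaced by windows laid end to end. Alternatives were gene bodies alone, 5 kb, 50 kb, every peak called, a minimum −log10 p of 10, windows of 100 and 1000 bp, full peak intervals, start-rich windows, genes no longer than the longest member and the AATAATT pattern. The scripts were tested on simulated lists.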

Additional observations from a re-analysis of the deposited data

How the results depend on the processing

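Of 136 alternative values, 88 stayed within the interval or within 1.5 times of the reported value and 48 did not. With a −log10 p of at least 10, kept summits in the Hox regions numbered 0, 0, 1 and 2 for Atoh1 (iAtoh1, iG+A, iP+A, iGPA), 12, 11, 8 and 7 for Pou4f3 (iPou4f3, iG+P, iP+A, iGPA) and 1 for Gfi1. Members with a summit were then 0, 0, 1 and 7 for Atoh1, 22 for Pou4f3 in iG+P and 21 in iP+A, and 5 for Gfi1, Hox sites numbered 17, and none held both Atoh1 and Pou4f3. In gene bodies alone, Atoh1 summits were 2 in iAtoh1, 6 in iP+A and 1 in iGPA, and members with a summit were 1, 4, 4 and 1 for Atoh1, 16, 17, 13 and 8 for Pou4f3 and 4 for Gfi1. Within 5 kb, members were 7, 8, 8 and 5 for Atoh1, 21 and 14 for Pou4f3 in iP+A and iGPA, and 7 for Gfi1. Within 50 kb, Atoh1 had 10 summits in iAtoh1 and 12 in iG+A, and 23, 27 and 24 members in iAtoh1, iG+A and iGPA. Against start-rich windows the density ratio moved to 0.421, 0.890 and 0.313 for Atoh1 in iG+A, iP+A and iGPA, and to 3.05 and 2.81 for Pou4f3 in iPou4f3 and iG+P. With 100 bp windows, 3 Hox sites held both Atoh1 and Pou4f3. The changes with a −log10 p minimum or another flank follow from fewer peaks or from the flank length, and for the start-rich and the 100 bp windows the cause was not tested. In every alternative for the Hox summits, each Pou4f3 count stayed above each Atoh1 count. The number of Hox sites in all 4 Pou4f3 lists stayed within 1.5 times of 9 under every alternative for shared sites, and no Gfi1 site held Atoh1 of iGPA with 1000 bp windows or all called peaks. No alternative that leaves out a replicate was possible, since lists were called on merged libraries. No paired analysis was possible because the result comes from no test. What depth limits could not be assessed, since read depth was not used.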
